A study of Mus musculus with 3 samples.

Results

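The solute carrier families SLC2, SLC16, SLC25 and SLC37 move sugars, monocarboxylates, sugar phosphates and mitochondrial metabolites across membranes. Their mouse genes were taken by symbol (Slc2a, Slc16a, Slc25a or Slc37a followed by a number) among genes with a transcript annotated as protein-coding. This gave 77 members of 55536 annotated genes, of which 21901 had a protein-coding transcript. SLC25 contributed 47 members, SLC16 14, SLC2 12 and SLC37 4. The cells were macrophages grown from C57BL/6J bone marrow (BMDM), and all 3 libraries form a single group. The cells were given Lipid A, the active part of bacterial lipopolysaccharide and a TLR4 ligand, at 100 ng/ml for 12 h. They were then washed and rested for 12 h, and given Lipid A again at 100 ng/ml for 40 min before the chromatin fraction was taken. Total RNA of that fraction, depleted of ribosomal RNA, was sequenced from 1 µg (replicate 1), 250 ng (replicate 2) and 500 ng (replicate 3) of starting RNA. The labels call the libraries biological replicates and give all of them the same donor entry, so the p-values below measure only the spread between these samples, which may be technical. No untreated or once-treated sample is part of the series, so every value is a level under this treatment and no effect of Lipid A is measured.

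SLC2 genes encode the GLUT transporters, which let glucose, fructose, urate and related solutes pass membranes down their gradients. SLC16 genes encode the monocarboxylate transporters (MCTs), some of which carry lactate and pyruvate with a proton and others amino acids or further solutes. SLC25 genes encode carriers of the mitochondrial inner membrane that exchange nucleotides, phosphate, acids of the citric acid cycle, amino acids, cofactors and metal ions with the cytosol, and SLC37 genes encode sugar-phosphate exchangers of the endoplasmic reticulum. Macrophages exposed to bacterial products are known to raise glucose use and lactate release and to export citrate from mitochondria. RNA of the chromatin fraction is rich in nascent, incompletely spliced transcripts, so a level here is not an amount of messenger RNA in the cytoplasm.

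Libraries held between 13802716 and 17187524 expected counts over annotated genes. A count of 0 allows up to 3 counts, which is 0.217, 0.175 and 0.182 CPM (counts scaled to library size) in replicates 1, 2 and 3. Macrophage markers were detected in 10 of 10 cases, with a summed level of 1120 to 1254 TPM (a transcript level scaled for length and library) in the 3 libraries. Markers of other cells were sparser: detected were 1 of 10 neutrophil, 2 of 7 T-lymphocyte, 1 of 6 B-lymphocyte, 3 of 6 dendritic, 1 of 8 erythroid and 3 of 7 fibroblast markers. Their summed levels ran from 86.7 to 117.7, 14.0 to 21.9, 2.7 to 4.57, 4.58 to 9.91, 4.93 to 10.6 and 0.060 to 1.79 TPM in that order. Nearly all of the neutrophil sum was Csf3r (107.2, 85.55 and 117.5 TPM), and every other neutrophil marker stayed at 0.95 TPM or less. The T-lymphocyte sum was nearly all Cd28 and Cd4, and Cd3d, Cd3e and Cd3g had no count. The part of these other cells in the levels of the carriers was not tested. In bulk RNA fewer cells of a type and less RNA per cell cannot be told apart.

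Most of the carriers left RNA on chromatin. A mean of at least 10 expected counts, taken here as detection, was reached by 58 of 77 members, against 49.9% of all protein-coding genes. The mean TPM of the members had a median of 2.83, against 0.45 for all protein-coding genes, and their median percentile among those genes was 64.5. The top decile held 10 members, against 10% of protein-coding genes by construction. The plot of TPM by library shows a steep order: 2 members exceeded 100 TPM (Slc25a3 and Slc2a6), 19 lay between 10 and 100, 30 between 1 and 10, and 7 were detected below 1 TPM. A further 12 had a mean of 0.33 to 8 counts. The remaining 7 (Slc2a4, Slc2a7, Slc2a10, Slc2a13, Slc25a41, Slc25a48 and Slc25a54) had no count in any library. Quantified from the reads, 8 of the 19 undetected members also reached a mean of 10 counts and none of the 58 fell below it. Detection then rose to 66 of 77 members, and over all 21901 protein-coding genes from 10923 to 14698, so the gain was general. The families differed in how many genes were detected: 39 of 47 SLC25 members were detected, 4 of 4 in SLC37, 9 of 14 in SLC16 and 6 of 12 in SLC2. Median TPM over all members of each was 4.46, 10.4, 0.84 and 0.137 in the same order.

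**Figure D1:**
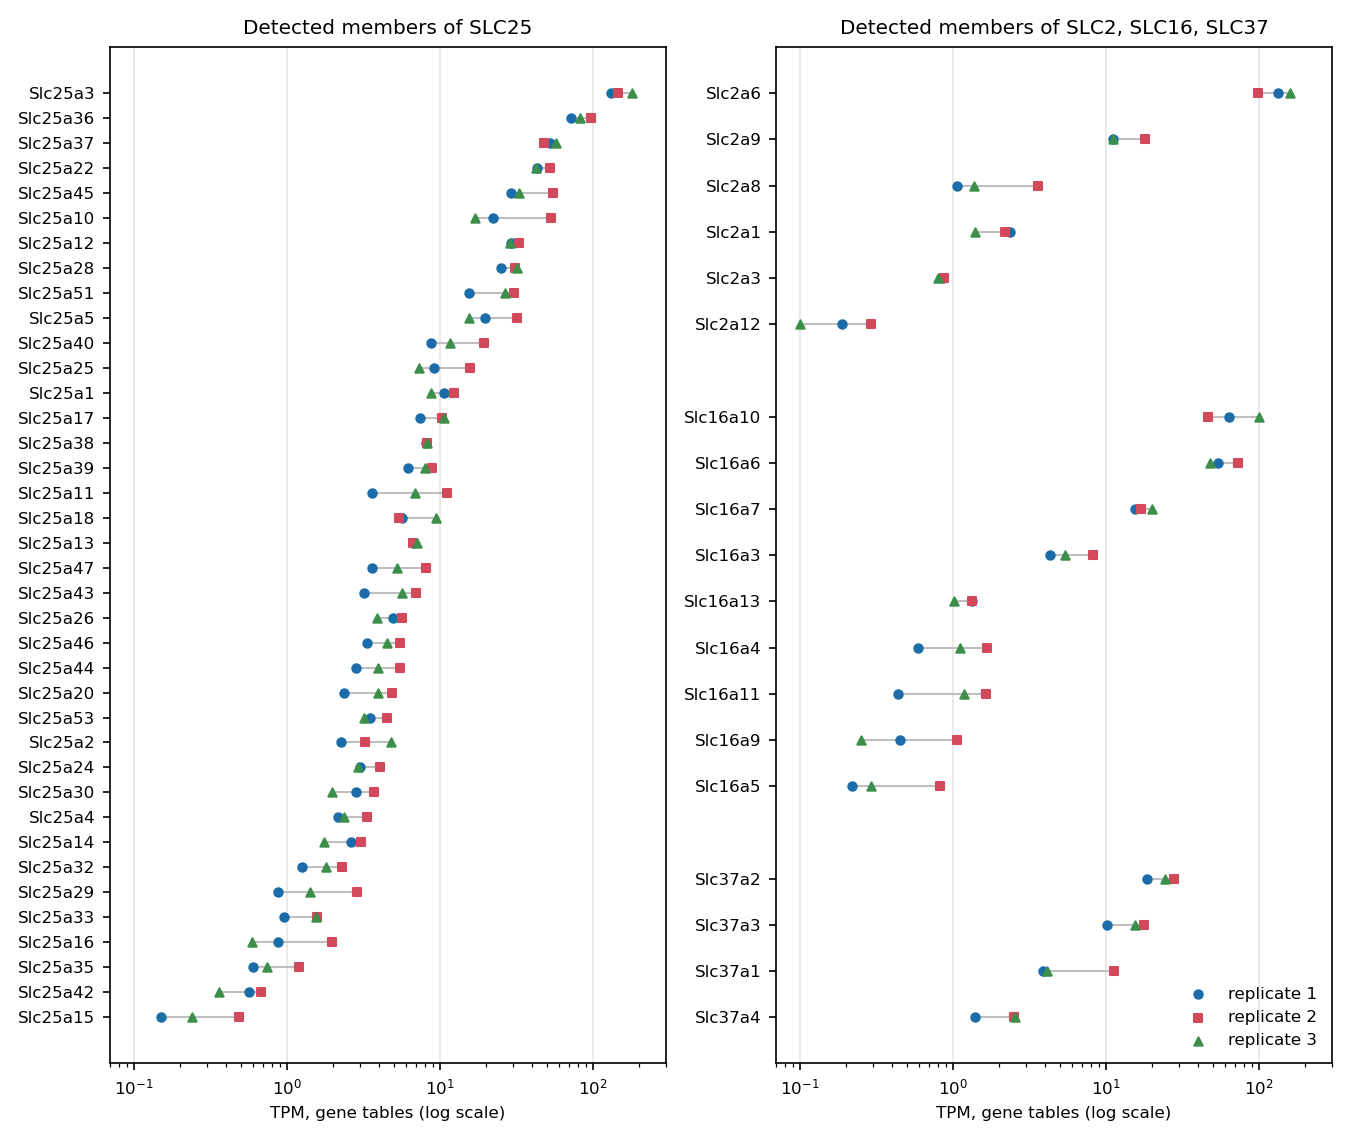
TPM in the gene tables (horizontal log axis) of 57 of the 58 detected members, 1 row a member, with a point for each of replicates 1, 2 and 3 and a grey line over their range. Slc25a3 and Slc2a6 lie near 100 TPM or above in every library, and many members have their highest point in replicate 2.

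Among the sugar transporters, Slc2a6 stood far above every other GLUT gene. Slc2a6 encodes GLUT6, a class III transporter of intracellular, lysosomal membranes, and lies on chromosome 2. Its level was 132, 98.1 and 159 TPM in replicates 1, 2 and 3 (130 ± 30.5, SD, n = 3). Those values made up 89.3%, 79.6% and 91.4% of the TPM of the SLC2 family. By expected counts the share was 90.4% (95% Wilson interval 89.5 to 91.2), 82.0% (80.8 to 83.2) and 91.6% (90.8 to 92.4), where the intervals cover counting error only. The intervals of replicate 2 and of the other libraries did not overlap, so replicate 2 held a smaller share than counting error allows. With protein-coding transcripts alone the share was 69.3%, 31.9% and 65.9%, and in replicate 2 Slc2a9 then exceeded it with 49.2%.

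The class I glucose transporters were low. Slc2a1, which encodes GLUT1, the main glucose importer of activated macrophages, measured 2.36, 2.19 and 1.39 TPM (1.98 ± 0.52, SD, n = 3). Slc2a3, which encodes the high-affinity neuronal-type GLUT3, measured 0.86, 0.87 and 0.80 TPM. Within each library Slc2a6 was thus 44.8 to 114 times Slc2a1 and 113 to 199 times Slc2a3. The size of that gap depended on the quantification: tables made directly from the reads gave 29.7 to 48.5 and 43.5 to 81.1 times, and protein-coding transcripts alone gave 10.1 and 102 times. Slc2a2, the liver and islet GLUT2, had 1 to 4 counts, but a mean of 62.2 counts and 0.56 TPM from the reads. Slc2a4, the insulin-responsive GLUT4, had no count.

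Slc2a9, a urate transporter of class II, was the only other SLC2 member above 10 TPM, at 11.1, 18.1 and 11.1 TPM. The fructose transporter Slc2a5 had a mean of 2.67 counts and Slc2a7 none. In class III, Slc2a8, which encodes the intracellular GLUT8, measured 1.07, 3.58 and 1.37 TPM, with replicate 2 above the other libraries (mean 2.01 TPM, and 1.22 TPM without replicate 2). Slc2a12 stayed at 0.10 to 0.29 TPM.

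Of the transporters that carry lactate and pyruvate, Slc16a7 (MCT2, of high affinity) was highest at 15.4, 16.9 and 20.0 TPM (17.4 ± 2.35, SD, n = 3). Slc16a3 (MCT4, which exports lactate from glycolytic cells) followed at 4.29, 8.19 and 5.44 TPM. In each library Slc16a7 was 2.07 to 3.68 times Slc16a3, and the ranges of the pair did not overlap. For Slc16a7, however, 58.6% of TPM fell in a processed transcript of 292 nt with a mean of 10.7 counts, while a protein-coding transcript of 10981 nt held 447 counts. Slc16a1 (MCT1, the widely expressed isoform) was not detected, with 8, 5 and 2 counts and 0.14, 0.080 and 0.040 TPM. Slc16a8, the retinal MCT3, had a mean of 3 counts.

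A pair of other SLC16 genes was more abundant than these. Slc16a10, which encodes the aromatic amino acid transporter TAT1, measured 64.0, 46.7 and 99.6 TPM (70.1 ± 27.0, SD, n = 3). Slc16a6, which encodes MCT7, measured 53.9, 72.7 and 47.7 TPM (58.1 ± 13.0). Together they made up most of the TPM of the family, but their order changed with the library: Slc16a10 was 1.19, 0.64 and 2.09 times Slc16a6 in replicates 1, 2 and 3. The order also depended on the transcripts counted, since with protein-coding transcripts alone Slc16a10 was 0.35 times Slc16a6. Slc16a4, Slc16a5, Slc16a9, Slc16a11 and Slc16a13 were detected at 0.45 to 1.23 TPM, while Slc16a12 and Slc16a14 had means of 1.33 and 1.67 counts.

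**Figure D2:**
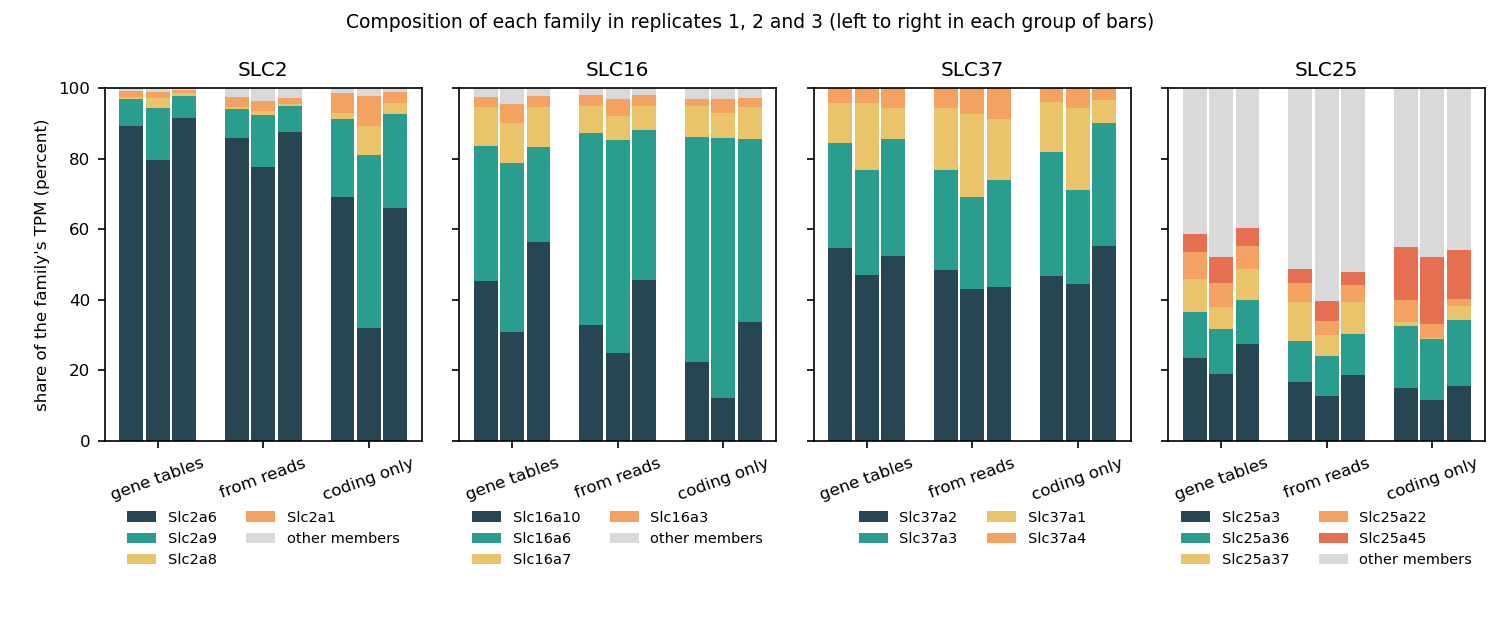
Share of each family's TPM (vertical axis, percent) held by its leading members, with bars for replicates 1, 2 and 3 in the gene tables, in the tables made from the reads, and for protein-coding transcripts of the gene tables alone. Slc2a6 takes 79.6% to 91.4% of SLC2 in the gene tables and 31.9% to 69.3% when protein-coding transcripts alone are counted.

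All 4 members of SLC37 were detected. Slc37a2, a sugar-phosphate exchanger known for its abundance in macrophages, measured 18.7, 28.0 and 24.4 TPM (23.7 ± 4.68, SD, n = 3). Slc37a3 followed at 10.1, 17.7 and 15.4 TPM and Slc37a1 at 3.89, 11.3 and 4.10 TPM (mean 6.44 TPM, and 3.995 TPM without replicate 2). Slc37a4, the glucose-6-phosphate translocase of the endoplasmic reticulum that works with glucose-6-phosphatase in liver, was lowest at 1.39, 2.50 and 2.56 TPM. Slc37a2 exceeded Slc37a4 by 9.54 to 13.5 times within a library and by 4.93 to 8.67 times in the tables made from the reads.

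Slc25a3, the mitochondrial phosphate carrier, had the highest mean of all members in the gene tables, at 132, 145 and 180 TPM (152 ± 25.1, SD, n = 3). Its range overlapped that of Slc2a6, and in replicate 1 Slc2a6 was marginally the higher. From the reads Slc25a3 measured 122, 102 and 134 TPM, below Slc2a6 (184, 141 and 211 TPM) in each library. Its mean from the reads (120 TPM) was also below that of Slc16a6 (147 TPM). Over protein-coding transcripts Slc25a3 had 33.4 TPM, below Slc16a6 (56.1), Slc25a36 (43.0) and Slc25a45 (39.0). The order of these leading genes is therefore not fixed by the data. Transcripts of retained-intron type held most of the TPM of Slc25a3 in the gene tables: Slc25a3-208 (4039 nt) alone measured 49.1, 61.6 and 73.3 TPM. A snoRNA gene, Gm24119 (157 TPM), lies within Slc25a3 on the same strand. The protein-coding Slc25a3-201 measured 25.7, 23.8 and 32.4 TPM. The coding transcripts differ by a pair of mutually exclusive exons, known from muscle and heart (the upstream exon) and from most other tissues (the downstream exon). The exons are shown because they tell which protein form the coding signal belongs to. The upstream exon (mm10 chr10:91122207-91122331, minus strand, 125 nt, in Slc25a3-206) and the downstream exon (chr10:91121922-91122043, minus strand, 122 nt, in Slc25a3-201 and Slc25a3-203) read as follows, 5′ to 3′ on the coding strand. Capitals mark the 84 bases that are identical in an alignment of the pair with 128 columns (65.6%).
Slc25a3 upstream exon: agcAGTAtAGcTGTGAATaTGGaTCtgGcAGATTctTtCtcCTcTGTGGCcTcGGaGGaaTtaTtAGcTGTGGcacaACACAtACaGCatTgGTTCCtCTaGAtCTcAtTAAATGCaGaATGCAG
Slc25a3 downstream exon: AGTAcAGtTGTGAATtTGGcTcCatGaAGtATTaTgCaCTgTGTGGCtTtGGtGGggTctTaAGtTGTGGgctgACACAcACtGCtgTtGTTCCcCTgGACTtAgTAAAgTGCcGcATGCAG

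Coding transcripts with the downstream exon summed to 28.7, 28.5 and 37.7 TPM, and the coding transcript with the upstream exon measured 0, 5.22 and 0.020 TPM. The downstream form thus exceeded the upstream form in each library. In the tables made from the reads the downstream form had 21, 19.7 and 25 TPM and the upstream form 6.60, 5.38 and 0.051 TPM, so the order was the same, while the level of the upstream form in replicate 1 was not.

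Of the ADP/ATP carriers, which exchange the nucleotides made and used in oxidative phosphorylation, Slc25a5 (ANT2, the form of proliferating cells) measured 19.8, 31.9 and 15.4 TPM. Slc25a4 (ANT1, the muscle form) measured 2.17, 3.35 and 2.38 TPM, and Slc25a5 was 6.47 to 9.53 times as high within a library (4.28 times over protein-coding transcripts). Slc25a5 has near-identical copies: 49.4% of its 31-base words also occur in transcripts of other genes, 13 genes in all, with Gm5560 sharing the most. Its counts are therefore uncertain. The calcium-regulated ATP-Mg/phosphate carriers followed, with Slc25a25 at 9.13, 15.8 and 7.31 TPM and Slc25a24 at 3.02, 4.06 and 2.92 TPM. Slc25a23 and the testis-type Slc25a31 were not detected, though Slc25a23 had a mean of 74.7 counts and 1.71 TPM from the reads.

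Carriers of citric acid cycle intermediates covered a wide range. Slc25a10, the dicarboxylate carrier that exchanges malate or succinate for phosphate, measured 22.2, 53.4 and 16.9 TPM. Slc25a1, the citrate carrier that supplies acetyl units to the cytosol, measured 10.6, 12.3 and 8.79 TPM. Slc25a11, the oxoglutarate carrier of the malate-aspartate shuttle, measured 3.58, 11.2 and 6.84 TPM. Slc25a10 was 1.92 to 4.32 times Slc25a1 and 2.47 to 6.20 times Slc25a11 within a library. Slc25a35 was detected at 0.85 TPM, and Slc25a21 and Slc25a34 were not detected (34.4 and 12.8 counts from the reads). Without replicate 2 the mean of Slc25a10 was 19.5 TPM, against 30.8 TPM with it.

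Of 10 members grouped here as amino acid carriers, 9 were detected. The other, Slc25a48, had no count in the gene tables but a mean of 23.2 counts from the reads. Slc25a22, a glutamate carrier, led in the gene tables with 43.0, 52.5 and 42.7 TPM (46.1 ± 5.59, SD, n = 3), against 5.67, 5.39 and 9.39 TPM for its paralog Slc25a18. That ratio of 4.54 to 9.75 was 1.46 to 2.86 from the reads and 1.38 over protein-coding transcripts. Slc25a12 (aralar, an aspartate/glutamate carrier of the malate-aspartate shuttle) measured 29.1, 33.0 and 28.6 TPM. From the reads Slc25a12 measured 57.5, 60.4 and 47.3 TPM, above Slc25a22 (39.7, 30.3 and 33.1 TPM) in each library. The paralog of Slc25a12, Slc25a13 (citrin), measured 6.66, 6.63 and 7.12 TPM in the gene tables. Slc25a12 was thus 4.02 to 4.97 times as high over all transcripts. With protein-coding transcripts alone the direction turned, and Slc25a12 was 0.78 times Slc25a13. The glycine carrier Slc25a38 (8.17 TPM), the branched-chain amino acid carrier Slc25a44 (4.07 TPM), the ornithine carriers Slc25a2 (3.42 TPM) and Slc25a15 (0.29 TPM) and the basic amino acid carrier Slc25a29 (1.72 TPM) were lower on average.

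All 9 cofactor and nucleotide carriers were detected. Slc25a36, which carries pyrimidine nucleotides into mitochondria, measured 71.8, 96.8 and 82.3 TPM (83.7 ± 12.6, SD, n = 3), and its paralog Slc25a33 reached 0.96 to 1.58 TPM. The ratio of that pair was 53.4 to 74.8 within a library, 27.8 to 42.6 from the reads and 31.6 over protein-coding transcripts. Slc25a51, the NAD carrier, measured 15.4, 30.4 and 26.8 TPM, with replicate 1 below the others. Slc25a17, a peroxisomal carrier of coenzyme A and related cofactors, measured 7.39, 10.4 and 10.6 TPM. The S-adenosylmethionine carrier Slc25a26 (4.83 TPM), the folate carrier Slc25a32 (1.78 TPM) and the coenzyme A carriers Slc25a16 (1.14 TPM) and Slc25a42 (0.54 TPM) were lower. Their order depended on the quantification. From the reads Slc25a42 had a mean of 284 counts and 5.16 TPM, above Slc25a32 (2.97 TPM) and Slc25a16 (2.51 TPM) and below Slc25a26 (12.7 TPM).

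Iron and glutathione carriers were detected in 4 of 4 cases. Slc25a37 and Slc25a28 encode mitoferrins 1 and 2, which bring iron into mitochondria for heme and iron-sulfur clusters. Slc25a37, the form best known from erythroid cells, measured 52.3, 47.6 and 57.5 TPM (52.5 ± 4.93, SD, n = 3), and Slc25a28 measured 25.1, 30.9 and 32.1 TPM. Slc25a37 was 1.54 to 2.08 times Slc25a28 in a library, and 2.75 to 3.57 times from the reads. The unclassified gene Gm20236 (21.9 TPM) overlaps Slc25a37 on the same strand. Of the erythroid markers 5 of 8 had no count, and the part of the detected one in this level was not tested. The glutathione carriers Slc25a40 and Slc25a39 measured 8.80, 19.4 and 11.7 TPM and 6.16, 8.94 and 7.97 TPM. Slc25a40 was 1.43 to 2.17 times Slc25a39 within a library in the gene tables. From the reads the ratio was 1.22, 1.78 and 0.95, so the order turned in replicate 3, and over protein-coding transcripts it was 0.51.

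Of the carnitine group, Slc25a45 measured 29.2, 54.9 and 33.0 TPM. All of its annotated transcripts are protein-coding, so its TPM could not fall in any other type. Slc25a20, the carnitine/acylcarnitine carrier of fatty acid oxidation, was lower at 2.35, 4.88 and 3.95 TPM. Slc25a47, otherwise known from liver, measured 3.61, 8.14 and 5.23 TPM, of which 69.5% lay in non-coding transcripts. The members related to uncoupling proteins were low, with Slc25a30 at 2.82, 3.71 and 1.96 TPM and Slc25a14 at a mean of 2.48 TPM. Slc25a27 was not detected (25.7 counts from the reads). The uncoupling protein gene Ucp2, which the symbol rule does not take, was higher at 9.12, 20.5 and 13.5 TPM. Slc25a43 (5.27 TPM), Slc25a46, a carrier-like protein of the outer membrane (4.46 TPM), and Slc25a53 (3.73 TPM) completed the SLC25 members taken by symbol. Genes of the family that go by other symbols are not among them.

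Much of the TPM lay in transcripts that the annotation does not call protein-coding. TPM is scaled for length, so a short transcript can hold a large share with few counts, as for Slc16a7 above. Shares by counts are not given here. Of 45 members with at least 1 TPM and both kinds of transcript, 27 had over 50% of TPM in such transcripts, against 47.6% of all protein-coding genes that met the same conditions. The median share was 54.0% for the members and 48.4% for all such genes. The highest shares in the gene tables were those of Slc25a28 (95.7%), Slc25a37 (92.0%), Slc25a12 (90.8%), Slc25a53 (89.8%) and Slc2a6 (87.4%). The tables made from the reads gave 86.3%, 65.5%, 92.5%, 94.98% and 59.3% in the same order, so the shares depended on the quantification. Retained introns held 43.1% of SLC25 TPM, 28.6% of SLC37, 1.77% of SLC2 and 1.72% of SLC16, against 37.5% over all protein-coding genes. Processed transcripts held 16.4%, 2.03%, 78.3% and 41.7% in the same order, against 8.58% over all protein-coding genes. The SLC2 shares rested on Slc2a6: without it, processed transcripts held 14.6% and retained introns 14.1% of SLC2 TPM, and 1 of 4 SLC2 genes had over 50% outside protein-coding transcripts. For Slc2a6 the processed transcripts Slc2a6-203 (63.3, 59.3 and 82.6 TPM) and Slc2a6-205 (43.3, 28.4 and 54.0 TPM) exceeded the coding Slc2a6-201 (20.7, 8.03 and 18.7 TPM) in each library. For Slc16a10 the processed transcript Slc16a10-204 measured 46.7, 34.8 and 69.7 TPM against 13.3, 7.48 and 24.7 TPM for the coding Slc16a10-202. Slc16a10-204 alone was the largest part of the SLC16 share in processed transcripts. The share of Slc16a10 outside protein-coding transcripts was 71.9% in the gene tables and 50.5% from the reads. For Slc25a37 the retained-intron transcript Slc25a37-203 held 82.5% of TPM in the gene tables and 47.4% from the reads. Slc16a6 was the opposite case, with 3.50% outside protein-coding transcripts in the gene tables, against 39.2% from the reads.

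**Figure D3:**
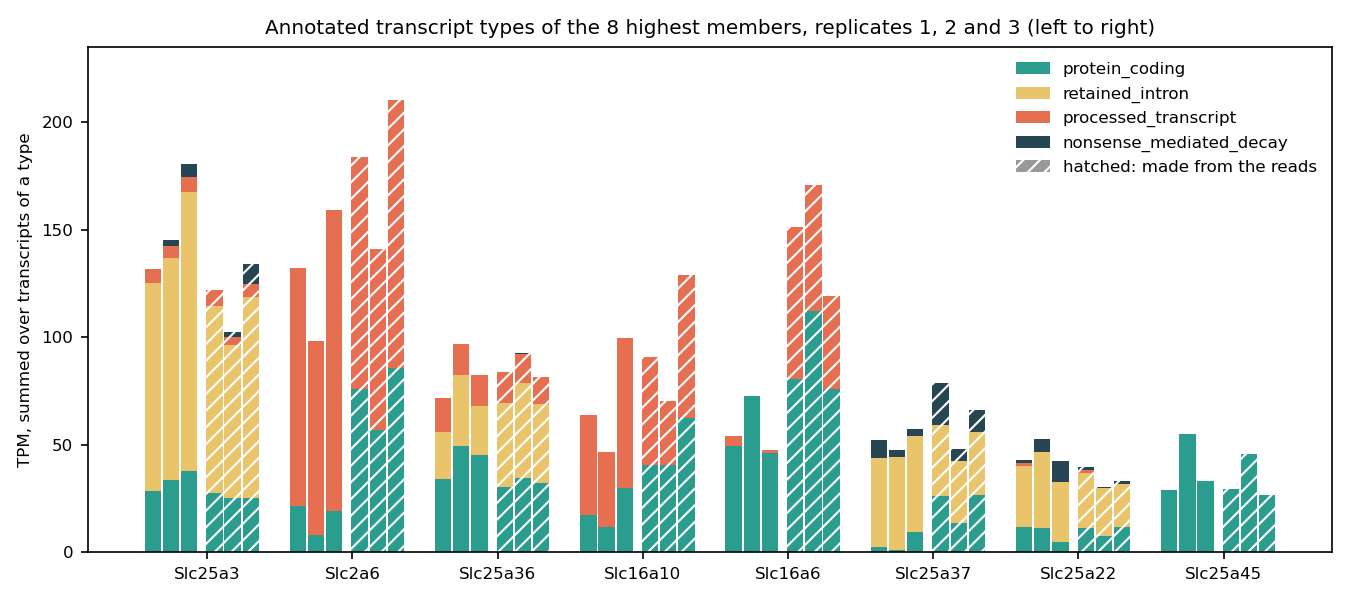
TPM (vertical axis, linear) of the 8 members with the highest mean in the gene tables, split by annotated transcript type. Plain bars show the gene-table quantification and hatched bars the one made from the reads, each for replicates 1, 2 and 3. Slc25a3 is mostly retained intron, and Slc2a6 and Slc16a10 mostly processed transcript in the plain bars. Slc25a45 has only protein-coding transcripts in the annotation.

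Replicate 2 was the library in which the carriers most often peaked. On the scale of log2 CPM with TMM scaling, 36 of 58 detected members had their highest value in replicate 2, against 40.9% of detected protein-coding genes. A chi-square test against Poisson counting noise, adjusted by Benjamini-Hochberg over all detected protein-coding genes, called 32 of 58 members different between libraries, against 58.1% of those genes. The members' share was thus near that of all detected genes. The median biological coefficient of variation (edgeR) was 0.212 for detected members and 0.197 for detected protein-coding genes. Without replicate 2 the test called 16 of 56 members and 29.5% of genes. Starting RNA was lowest in replicate 2, and input and library cannot be told apart.

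The member with the largest SD among the 33 with a mean of at least 100 counts was Slc25a10, with log2 CPM of 4.71, 5.40 and 4.10 in replicates 1, 2 and 3 (adjusted p = 8.15e-40, chi-square). Slc16a10 had 6.65, 5.85 and 7.03 (adjusted p = 3.11e-105, chi-square), and Slc2a6 had 8.23, 7.42 and 8.25 (adjusted p = 1.28e-169, chi-square). Slc25a10 was highest in replicate 2, while Slc16a10 and Slc2a6 were lowest there. Slc25a11 had 2.17, 3.31 and 2.71 (adjusted p = 1.96e-07, chi-square), again with its maximum in replicate 2. Slc25a18 had 3.31, 2.79 and 3.75 (adjusted p = 5.00e-08, chi-square), with its minimum there. At the other end, Slc25a36 had 7.26, 7.33 and 7.35 despite a mean of 2528 counts (adjusted p = 0.140, chi-square).

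**Figure D4:**
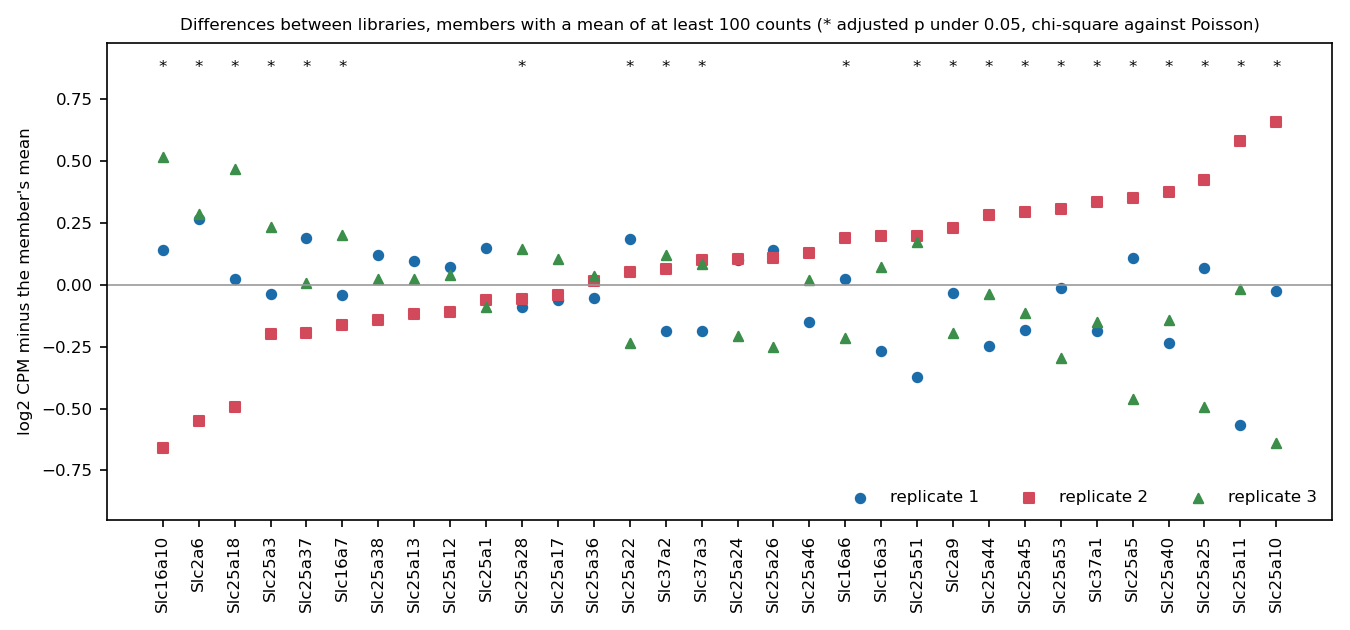
Log2 CPM of 32 of the 33 members with a mean of at least 100 counts, as the difference from each member's mean over the libraries (vertical axis), in order of the value in replicate 2. Squares (replicate 2) are lowest for Slc16a10, Slc2a6 and Slc25a18 on the left and highest for Slc25a11 and Slc25a10 on the right, and stars mark an adjusted p under 0.05.

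The files hold the same libraries quantified in another way, directly from the reads. The ratio of the read-based TPM to the gene-table TPM had a median of 1.24 over detected members and 1.29 over detected protein-coding genes. It exceeded 2 for 12 of 58 members, against 20.1% of those genes. Slc16a6 was the main example among abundant members: the mean was 147 TPM from the reads and 58.1 TPM in the gene tables. The 367-nt processed transcript Slc16a6-204 measured 70.6, 58.8 and 43.4 TPM from the reads and 4.51, 0 and 1.60 TPM in the other tables. The gene overlaps Amz2 and Arsg on the opposite strand, and 22.4% of its 31-base words occur in reverse complement in transcripts of other genes, mostly Amz2. Slc25a17 went from 9.45 to 32.0 TPM, Slc25a18 from 6.82 to 16.5 TPM and Slc25a25 from 10.8 to 20.7 TPM. Slc2a13, the proton/myo-inositol transporter, is listed at 0 in the gene tables and had 2.05, 2.62 and 1.90 TPM from the reads, all in the processed transcript Slc2a13-201. The sources used here do not say whether counting used strand. The spans of 30 members overlap an opposite-strand gene, and reads of bases shared by their transcripts may not be told apart. Some partners had no count, such as Pax9 beside Slc25a21. Slc25a18 overlaps Atp6v1e1 (65.1 TPM), but 0.106% of its 31-base words occur in reverse complement in transcripts of other genes. For Slc25a11, which overlaps Rnf167 (24.7 TPM), this was 7.37%.

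**Figure D5:**
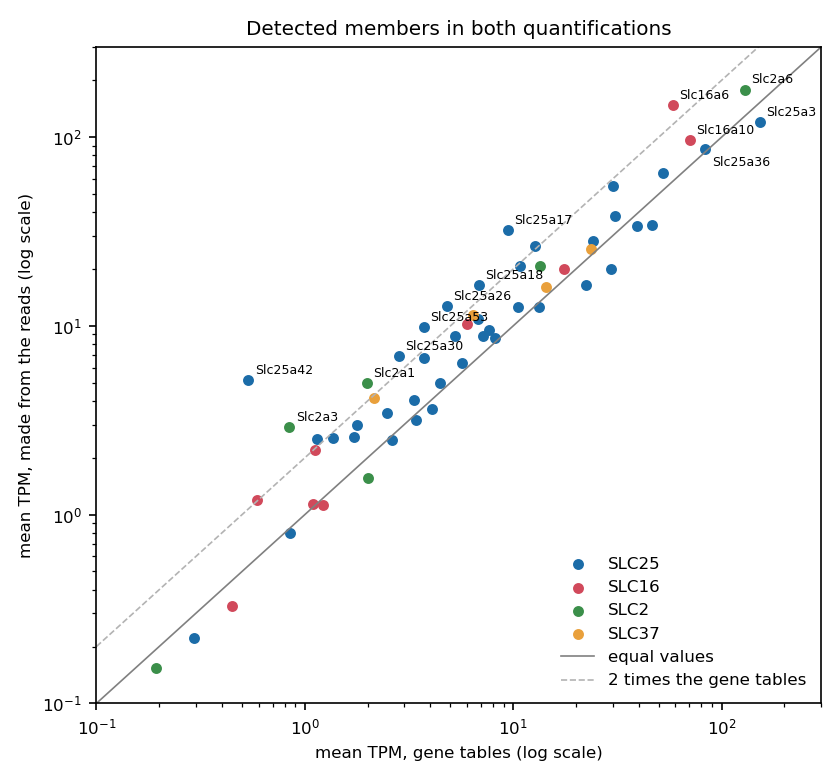
Mean TPM of the 58 detected members in the gene tables (horizontal log axis) and in the tables made from the reads (vertical log axis), by family. The solid line marks equal values and the dashed line a ratio of 2, above which lie Slc16a6, Slc25a17 and Slc25a42 among others.

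The members lie on 20 chromosomes, and 6 pairs are within 20000 bp of each other. Slc25a29 and Slc25a47, on chromosome 12, are transcribed away from each other with 162 bp between them. Both were detected, at 0.88, 2.88 and 1.41 TPM for Slc25a29 and 3.61, 8.14 and 5.23 TPM for Slc25a47. Each was highest in replicate 2, as were 36 of the 58 detected members. The libraries differed beyond counting noise for Slc25a29 (adjusted p = 2.06e-04, chi-square) but not for Slc25a47 (adjusted p = 0.165, chi-square). The non-coding Slc25a47-205, which starts beside Slc25a29, measured 1.20, 3.22 and 1.76 TPM. The bases between the outermost starts are shown because RNA was counted on both sides of them (RefSeq, GRCm38.p6, chr12:108835884-108836045, plus strand). Capitals mark CCAAT or its reverse complement, which occurs 2 times here and in 35.0% of promoter windows (250 bases before the start, either strand) of protein-coding genes.
Slc25a29 to Slc25a47: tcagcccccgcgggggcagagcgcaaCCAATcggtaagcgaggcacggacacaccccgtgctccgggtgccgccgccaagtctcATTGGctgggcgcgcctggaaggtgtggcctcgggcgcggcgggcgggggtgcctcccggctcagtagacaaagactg

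These bases had a GC content of 71.6%, with 18 CpG dinucleotides and an observed-to-expected CpG ratio of 0.871. Promoter windows were matched by symbol for 59 of 77 members, with 72 windows. A CpG ratio above 0.6 was found in 25 of 55 windows of detected members and 4 of 17 of the others. For all protein-coding genes the shares were 65.2% of windows of detected genes and 22.9% of the others.

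Genes that work beside these carriers were also counted. Of 17 glycolytic genes 16 were detected, led by the hexokinase Hk3 (346 ± 6.71 TPM), Pkm (76.1 ± 15.4) and Pfkfb3 (54.3 ± 11.0; SD, n = 3). Of 18 genes listed beside the carriers, Ucp2 included, 17 were detected, led by the import chaperone Hspa9 (107 ± 32.1 TPM), Vdac2 (55.7 ± 13.8) and Mtch2 (28.7 ± 8.05). All 16 genes of the citric acid cycle and the malate-aspartate shuttle were detected, with Sdha (42.8 ± 5.01 TPM) and Ogdh (27.7 ± 5.35; SD, n = 3) among the most abundant. Basigin (Bsg, 4.28 TPM) and embigin (Emb, 4.29 TPM), which bring MCTs to the plasma membrane, lay near Slc16a3 in level, and the pyruvate carrier subunits Mpc1 and Mpc2 measured 28.5 and 2.83 TPM.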

How the data were processed

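Chromatin-fraction total RNA-seq was analysed in 3 libraries of 1 group, with 13802716 to 17187524 counts each, and counting error alone allows 3 counts where 0 are seen. The expected counts and TPM of genes and transcripts were deposited by the authors in tables whose readmes, per the file headers, derive them from transcriptome alignments (mm10, GENCODE M21). Estimated counts and TPM made directly from the reads were deposited by the authors as separate transcript tables. The sources used here name no program.

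Expected counts were rounded for tests. TMM factors and dispersions came from edgeR 4.0.16 and size factors from DESeq2 1.42.0. The chi-square statistic and Benjamini-Hochberg adjustment were computed directly, with tail probabilities from scipy 1.17.1. Their code was checked on simulated Poisson counts, which hold no spread between libraries beyond counting noise except in genes changed on purpose. Log2 CPM used a prior count of 0.5 and percentiles log2(TPM + 1). Entries outside annotated genes (0.279% to 1.13% of counts) were left out, and 86 genes without a name in the transcript tables entered totals only. Promoters are from RefSeq (GRCm38.p6) and exons from GENCODE M21.

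Members, lists and pairs were chosen with earlier results of these data known. Named with values were the highest members of each family and role, all of SLC37, 17 members of known roles, and those of largest spread, largest change of quantification or highest non-coding share, 37 in all. Others, the 17 pairs included, were chosen after their values were seen. Alternatives changed the quantification, filters, scaling, transcripts counted and libraries. A few genes that the naming rule covers are not reported here.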

Additional observations from a re-analysis of the deposited data

How the results depend on the processing

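The number of detected members was 53 to 68 under the other filters, the read-based tables and with each library left out (56 to 58). The median percentile of the members was 60.5 from the reads, 63.6 by CPM, 43.7 against detected genes alone, and 63.6 to 64.6 with a library left out. The members' median TPM was 4.15 from the reads, 1.39 over protein-coding transcripts (added after seeing the data) and 2.39 to 2.87 with a library left out. The members varying beyond counting noise numbered 26 to 41 under other scalings, filters and quantification, for which the share over all genes is not given here. With a library left out, where fewer counts are tested, they numbered 16 to 27. That was 28.6% to 46.6% of the members tested, near the 29.5% to 46.9% of all protein-coding genes tested. The median non-coding share was 60.7% from the reads and 51.6% to 55.0% with a library left out. Slc2a6 held 55.7% of SLC2 TPM over protein-coding transcripts, 83.7% from the reads and 84.5% to 90.4% with a library left out (added after seeing the data). The causes were not tested. The top decile held 7 members from the reads and 7 over protein-coding transcripts. Of 37 named members, 24 moved by more than 1 SD in TPM with the read-based tables, 21 of them upward, and none did with TPM rescaled over protein-coding genes. Leaving out replicate 2 lowered the mean TPM of 8 detected members by over 1.5 times, Slc25a10, Slc37a1 and Slc2a8 among them. No other library did so. The same was not counted over all detected genes, of which 40.9% of the protein-coding ones had their highest log2 CPM in replicate 2. It is therefore not shown to be particular to the carriers. The 19 undetected members rest on few counts in the gene tables, but 8 of them reached 10 counts from the reads. No paired analysis was possible because the labels give 1 group and no contrast.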
